A study of Homo sapiens with 4 samples.

Results

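The arsenic uptake and methylation genes are 10 named genes whose products carry arsenite into cells or reduce and methylate arsenic. They are the aquaporins AQP3, AQP7, AQP9 and AQP11, the reducing enzymes GSTO1, GSTO2 and PNP, the methyltransferases AS3MT and N6AMT1, and MAT2A, which makes the methyl donor. They were chosen by name, and all their probe sets were read, a probe set being a group of short probes for 1 transcript. Of the 10 genes, 9 had a probe set annotated to that gene alone, among 19775 such genes on the array, and together they had 16 such probe sets. AQP7 was read only by a probe set that also names AQP7B, so no value could be assigned to AQP7. N6AMT1 is listed under its RefSeq symbol HEMK2 and was matched through its gene ID.

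Affymetrix U133 Plus arrays were used to profile gene expression in 2 established human hepatocellular carcinoma (HCC) lines, Huh7 and Hep3B. In each line, 1 profile came from cells given arsenic trioxide (ATO) at 3 μM for 7 days, and 1 from negative control (NC) cells that received DMSO, the solvent. The 4 profiles carry no other treatment, and nothing in the labels describes separate cultures of a condition. ATO is an arsenic drug used in leukemia, and the study asked how gene expression changes when HCC cells are exposed to a low dose of it.

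Arsenite enters liver cells mainly as an uncharged acid through aquaglyceroporins, the aquaporins that also pass glycerol. Inside the cell AS3MT transfers methyl groups from S-adenosylmethionine (SAM) to trivalent arsenic, and the methylated products are reduced with glutathione or by omega-class glutathione transferases between the steps. The methylated forms leave the liver more readily, and variants near AS3MT are known for their association with how people excrete arsenic.

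The deposited values are linear intensities with column medians between 15.8 and 16.3 over the 4 profiles. A probe set was called dim when its mean lay below 17.3, the median over all probe sets. Over all genes, the log2 of ATO over NC had its median at 0.01 for Huh7 and 0.04 for Hep3B. Poly-A control RNAs, which are added before labeling, had log2 values of ATO over NC with medians of -0.28 for Huh7 and -0.23 for Hep3B, and their part in the results was not tested. All 9 hepatocyte and HCC markers measured were above the median probe set in every profile, whereas both immune markers were below it. Of 4 fibroblast markers, 2 were above it in every profile, COL1A1 between 54.5 and 76.4 and PDGFRB between 40.3 and 58.0. Of 3 endothelial markers, PECAM1 alone was above it, in 3 profiles, at no more than 20.5. AFP and GPC3, fetal liver proteins, were far lower in the profiles labelled Huh7, although Huh7 is known as an AFP-producing line. AFP had intensities of 62.1 with ATO and 91.8 in NC for Huh7, and of 1646 with ATO and 3567 in NC for Hep3B. GPC3 was at 32.8 and 29.3 in the Huh7 profiles and at 2397 and 3730 in the Hep3B profiles, in the same order. As Huh7 over Hep3B, ALB had ratios of 0.0333 with ATO and 0.0121 in NC, and TTR 0.0165 and 0.0283. APOA1 (0.384 and 0.247) and TF (0.631 and 0.526) were also lower in Huh7. FGB (1.29 and 4.83) and SERPINA1 (1.53 and 1.26) were higher in Huh7, and APOB (1.01 and 0.750) fell on both sides of 1. Whether these values bear on the identity of the line was not tested. The 4 cholangiocyte markers summed to 344 with ATO and 211 in NC for Huh7, and to 1634 with ATO and 1568 in NC for Hep3B. Of them KRT7 alone was above a ratio of 1.5 in both lines (4.42 in Huh7 and 2.55 in Hep3B). KRT19 had ratios of 1.13 and 1.06, SOX9 1.02 and 0.854, and CFTR, which was dim, 1.25 and 1.93. KRT7 was at 164 with ATO and 37.1 in NC for Huh7. KRT19 made up most of the Hep3B sums, at 1251 with ATO and 1185 in NC. The part of KRT7 in the results was not tested. In the ATO profiles HMOX1, the heme-degrading enzyme that arsenic induces, was 8.28 times the control in Huh7 and 4.97 times in Hep3B.

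With ATO, GSTO2 was the 1 member above a ratio of 1.5 in both lines, while AS3MT and AQP11 were lower in both, below 0.67 in Huh7 only. AQP3 was also below 0.67 in Huh7 and unchanged within 1% in Hep3B. GSTO1 was higher in both lines by less than the threshold, and PNP, N6AMT1 and MAT2A stayed near their controls by their brightest probe sets. A ratio is ATO over NC within a line, and the thresholds of 1.5 and 0.67 are those of the study. Across the lines, ATO was compared with NC by limma on log2(intensity + 16) with the line in the model, with p-values adjusted over all 19775 genes. After adjustment limma put 0 members under 0.05, and 0 of all genes (0%), the smallest value of any gene being 0.506. Before adjustment 3 members had a limma p under 0.05, GSTO2, GSTO1 and AS3MT, and 1886 of all genes (9.54%). Each condition has 1 profile per line, so no ratio has a replicate error of its own. In bulk RNA, fewer cells that express a gene and less of its RNA per cell cannot be told apart.

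**Figure D1:**
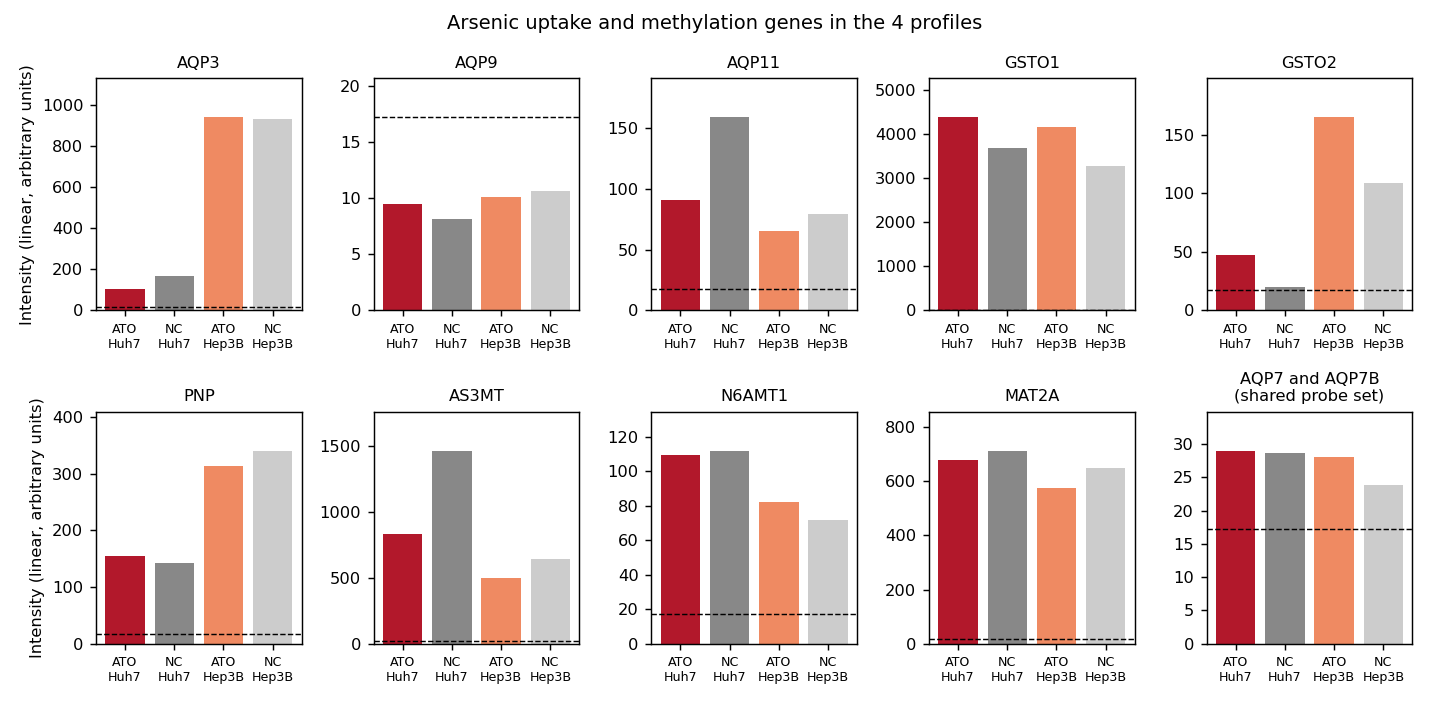
Intensity (y axis, linear, from 0) of each member's brightest probe set in the ATO and NC profiles of Huh7 and Hep3B, 1 bar per profile, with the probe set that AQP7 shares with AQP7B last. The dashed line is the median of all probe sets, 17.3. GSTO1 and GSTO2 stand higher with ATO in both lines and AS3MT and AQP11 lower, and AQP3 and GSTO2 are far lower in Huh7 than in Hep3B.

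Whether the aquaporins of the list moved together could not be read. AQP9 was dim, AQP7 had no value of its own, and the direction of AQP3 varied with the probe set. AQP3, an aquaglyceroporin of epithelia, had intensities of 103 with ATO and 169 in NC for Huh7, and of 943 with ATO and 935 in NC for Hep3B. Both Hep3B profiles lay far above both Huh7 profiles. ATO over NC thus came to 0.606 for Huh7 and 1.01 for Hep3B (mean log2 -0.36, SD 0.52 between the 2 lines), and the adjusted limma p was 0.701. This rests on the brightest of 3 AQP3 probe sets, and the others did not follow it. A second, at 45.6 with ATO and 37.0 in NC for Huh7 and at 93.9 and 101 for Hep3B, had ratios of 1.23 and 0.929. The third, at 27.4 with ATO and 28.9 in NC for Huh7 and at 87.1 and 61.4 for Hep3B, had ratios of 0.951 and 1.42. The direction of AQP3 with ATO in each line therefore depended on the probe set, whereas all 3 were lower in Huh7 than in Hep3B under both conditions.

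AQP9, the main glycerol channel of hepatocytes, was dim in every profile. Its intensities were 9.49 with ATO and 8.11 in NC for Huh7, and 10.1 with ATO and 10.6 in NC for Hep3B. At that brightness the ratios of 1.17 and 0.948 cannot be read as a change in either line. AQP11, an unusual aquaporin of the endoplasmic reticulum, had 90.8 with ATO and 159 in NC for Huh7, and 65.4 with ATO and 78.9 in NC for Hep3B. Its NC profile in Huh7 was the highest of the 4 and its ATO profile in Hep3B the lowest. ATO over NC came to 0.571 for Huh7 and 0.829 for Hep3B (mean log2 -0.54, SD 0.38 between the 2 lines), and the adjusted limma p was 0.543. The probe set shared by AQP7, the glycerol channel of fat cells, and AQP7B had 29.0 with ATO and 28.6 in NC for Huh7, and 28.0 with ATO and 23.9 in NC for Hep3B. Its ratios were 1.01 and 1.17.

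Of the reducing enzymes, GSTO1 and GSTO2 were higher with ATO in both lines and PNP was not. Both encode omega-class glutathione transferases, which reduce pentavalent methylated arsenic and dehydroascorbate, and they lie next to each other on chromosome 10 with 0 protein-coding genes between them in RefSeq. The bases before their start sites are shown because they are the 2 members higher in both lines, with those of AS3MT, the member farthest below its controls, beside them. The sequences are from RefSeq on GRCh38.p14, each the 250 bases upstream of the start site on the plus strand, and capitals mark a match to the antioxidant response element bound by NRF2, searched on either strand as TGAC and GCA with 3 bases of any kind between them.
GSTO1, chr10:104254642-104254891: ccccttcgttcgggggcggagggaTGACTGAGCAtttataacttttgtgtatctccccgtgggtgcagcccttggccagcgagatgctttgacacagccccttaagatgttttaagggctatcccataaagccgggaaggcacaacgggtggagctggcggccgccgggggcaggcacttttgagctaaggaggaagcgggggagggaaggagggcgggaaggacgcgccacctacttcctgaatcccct
GSTO2, chr10:104268934-104269183: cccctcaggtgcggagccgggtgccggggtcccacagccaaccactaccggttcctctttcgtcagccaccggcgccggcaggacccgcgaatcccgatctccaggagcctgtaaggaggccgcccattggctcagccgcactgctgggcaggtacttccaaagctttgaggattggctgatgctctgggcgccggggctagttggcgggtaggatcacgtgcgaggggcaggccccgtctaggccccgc
AS3MT, chr10:102869220-102869469: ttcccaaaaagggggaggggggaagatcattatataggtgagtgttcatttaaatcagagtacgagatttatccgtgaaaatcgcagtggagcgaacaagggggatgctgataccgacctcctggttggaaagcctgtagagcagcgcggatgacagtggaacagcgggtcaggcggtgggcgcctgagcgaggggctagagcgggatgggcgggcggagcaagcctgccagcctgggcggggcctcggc
The promoter table held 9 of the 10 members, searched from 250 bases before to 50 after the start site. GSTO1 was the only one of these 9 with the antioxidant response element, 226 bases before the start site, and 3.19% of 35093 promoters of that length hold it. For GSTO2, which has a further start site in the table, the motif letters were in neither window. The metal response element, searched as TGCACNC and TGCGCNC on both strands, was in 4 of the 9 (AQP3, GSTO1, PNP and N6AMT1), against 29.5% of all promoters. A match is a description of the letters and not a binding site.

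GSTO1 was bright in all profiles, at 4377 with ATO and 3675 in NC for Huh7, and at 4158 with ATO and 3278 in NC for Hep3B. Both ATO profiles lay above both NC profiles. ATO over NC came to 1.19 for Huh7 and 1.27 for Hep3B (mean log2 0.30, SD 0.06 between the 2 lines), the smallest spread among the 9 members. A second probe set of GSTO1 had ratios of 1.28 and 1.36, so both were higher in both lines. The limma p was 0.0251 before adjustment and 0.506 after it.

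GSTO2 had intensities of 46.9 with ATO and 20.0 in NC for Huh7, and of 165 with ATO and 109 in NC for Hep3B. Both Hep3B profiles exceeded both Huh7 profiles, and within each line the ATO profile was the higher. ATO over NC came to 2.34 for Huh7 and 1.52 for Hep3B (mean log2 0.91, SD 0.44 between the 2 lines). On the log2(intensity + 16) scale limma estimated 0.67 ± 0.10 (SE), and the p was 0.00833 before adjustment and 0.506 after it. The ratio in Hep3B lay close to the threshold and went under 1.5 with each array centred on its median, with 16 added to the intensities or with the mean of both GSTO2 probe sets. The other probe set was dim, with ratios of 0.945 and 1.19, and the Huh7 control of the brighter one was near the median probe set, so the size of that ratio is uncertain. Among all genes, 0.804% were above 1.5 in both lines, 3.21% in Huh7 and 5.04% in Hep3B. PNP, a purine phosphorylase that can reduce arsenate by arsenolysis, had 155 with ATO and 142 in NC for Huh7, and 313 with ATO and 341 in NC for Hep3B. Its ratios of 1.09 and 0.918 pointed in opposite directions, with a mean log2 of 0.00 and an SD of 0.18 between the 2 lines.

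AS3MT, the enzyme that methylates arsenite, was the member farthest below its controls on average. Its intensity was 832 with ATO and 1464 in NC for Huh7, and 497 with ATO and 646 in NC for Hep3B. The ATO profile of Huh7 was still above the NC profile of Hep3B, while within each line the ATO profile was the lower. ATO over NC came to 0.568 for Huh7 and 0.769 for Hep3B (mean log2 -0.60, SD 0.31 between the 2 lines). Limma gave -0.59 ± 0.14 (SE), with a p of 0.0303 before adjustment and 0.506 after it. In Huh7, 1.17% of all genes had a lower ratio than AS3MT, and in Hep3B 9.05%. AS3MT was read by 1 probe set, and RefSeq lists a readthrough transcript that joins it to its upstream neighbor BORCS7, so the 2 transcripts may not be separable here.

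N6AMT1, a methyltransferase of proteins that was reported to act on monomethylated arsenic, showed no common direction. It had 110 with ATO and 112 in NC for Huh7, and 82.3 with ATO and 71.8 in NC for Hep3B, with ratios of 0.979 and 1.15. Its remaining 2 probe sets were dim, with ratios between 0.909 and 1.07. TRMT112, the partner protein of N6AMT1, had ratios of 1.04 and 0.903. MAT2A, the SAM synthetase of proliferating cells and liver tumors, had 678 with ATO and 713 in NC for Huh7, and 575 with ATO and 649 in NC for Hep3B. The ratios were 0.951 and 0.887, and those of a second, weaker probe set were 0.704 and 0.965, so both were lower in both lines without passing 0.67. The mean log2 was -0.12 with an SD of 0.07 between the 2 lines, and the adjusted limma p was 0.668.

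**Figure D2:**
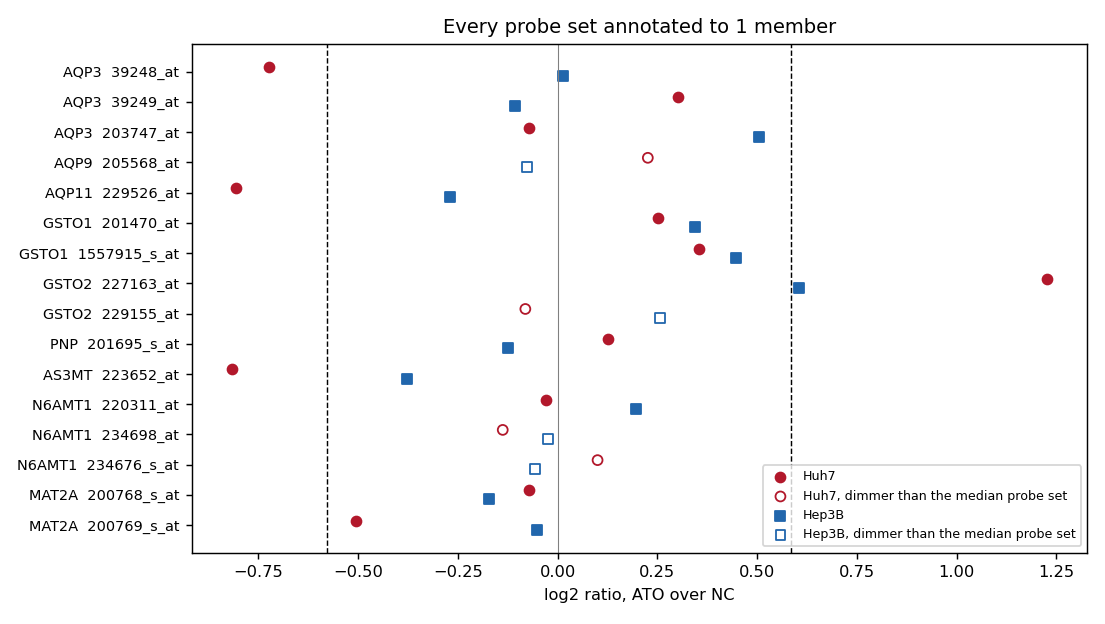
Log2 ratio of ATO over NC (x axis) for each of the 16 probe sets annotated to 1 member (y axis, brightest first within a gene), with circles for Huh7 and squares for Hep3B. Open symbols are dim probe sets, and dashed lines mark ratios of 1.5 and 0.67. Of the 16 probe sets, 3 were higher in both lines, 5 lower in both and 8 mixed. No share over all probe sets was computed for these directions.

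Counted over probe sets, 1 of the 16 was above 1.5 in Huh7 (3.04% of all probe sets with 1 gene), 1 in Hep3B (4.46%) and 1 in both (0.611%). Below 0.67 were 3 of the 16 in Huh7 (3.05%), 0 in Hep3B (4.06%) and 0 in both (0.574%).

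By direction alone, ATO was above NC in both lines for 2 of the 9 members and below it in both for 3, and for 4 the ratios lay on opposite sides of 1. Among all genes, 32.0% were higher in both lines and 24.7% lower in both, and 8475 of 19775 had ratios on opposite sides of 1. Below 0.67 in Huh7 were 3 of the 9, AS3MT, AQP11 and AQP3, where 3.25% of all genes were below it. In Hep3B 0 of the 9 were below 0.67, where 4.02% of all genes were, and 0.587% of all genes were below it in both lines. Over the 9 members the log2 of ATO over NC had its median at -0.03 for Huh7 and -0.08 for Hep3B, beside 0.01 and 0.04 over all genes. As a scale for single ratios, all genes were divided into 10 classes of mean log2 intensity. The log2 ratios of AS3MT, -0.82 in Huh7, AQP11, -0.81, and AQP3, -0.72, lay below the central 90% of genes in their own class and line, and that of GSTO2, 1.23, above it. In Hep3B 0 of the 9 members lay outside the central 90% of their class, GSTO2 at 0.60 against an upper limit of 0.78 and AS3MT at -0.38 against a lower limit of -0.53. The 4 members past a threshold were thus farther out in Huh7, but 1 profile per condition leaves no test of the difference between the lines.

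**Figure D3:**
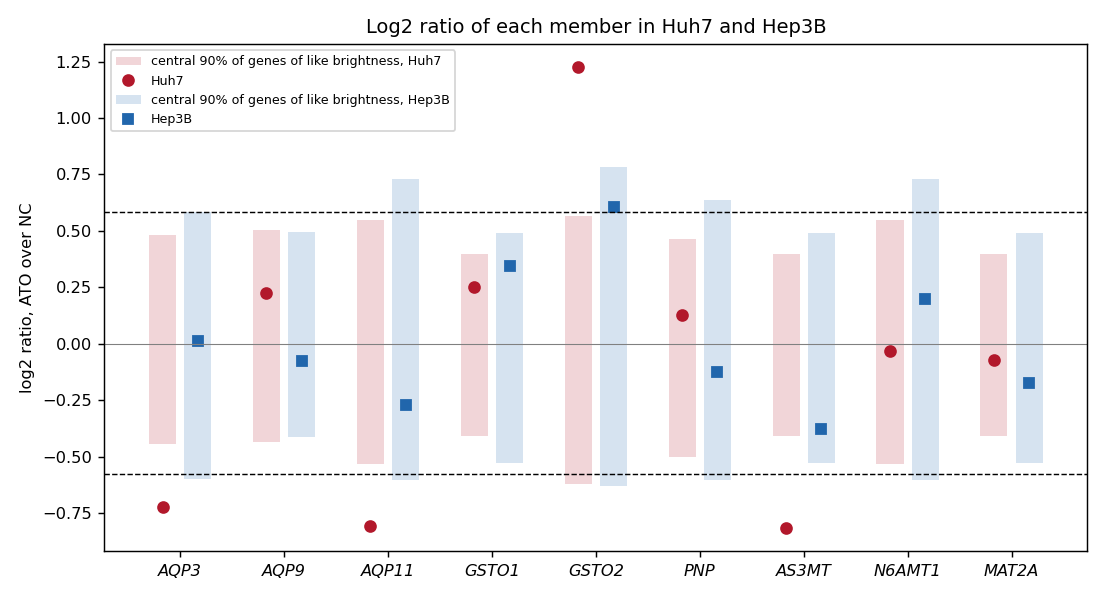
Log2 ratio of ATO over NC (y axis) for the 9 members, with circles for Huh7 and squares for Hep3B. Shaded bars span the central 90% of the log2 ratios of all genes in the same class of brightness in that line, and dashed lines mark ratios of 1.5 and 0.67. In Huh7 GSTO2 lies above its bar and AQP3, AQP11 and AS3MT below theirs, and in Hep3B every member lies within its bar.

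The ATO test called 0 members and 0 of all genes after adjustment, so its count is not set against that between the lines. In the same limma fit, 4 of the 9 differed between Huh7 and Hep3B at an adjusted p under 0.05, as did 24.3% of all genes, and before adjustment 6 did, as did 38.1% of all genes. By ratio, 1 of the 9 was above 1.5 (11.7% of all genes) and 3 were below 0.67 (11.9%) under both conditions. AQP3 was lower in Huh7, with a Huh7 over Hep3B ratio of 0.109 with ATO and 0.181 in NC and an adjusted p of 0.0180 from limma. GSTO2 was lower in Huh7 too, with ratios of 0.284 with ATO and 0.184 in NC and an adjusted p of 0.0146 from limma. PNP was the third gene lower in Huh7, with ratios of 0.496 with ATO and 0.417 in NC and an adjusted p of 0.0205 from limma. AS3MT was higher in Huh7, with ratios of 1.68 with ATO and 2.27 in NC and an adjusted p of 0.0416 from limma. AQP11 ran the same way, at 1.39 with ATO and 2.02 in NC, but did not pass, with an adjusted p of 0.0943 from limma, and N6AMT1, at 1.33 and 1.56, had 0.0573. GSTO1, at 1.05 with ATO and 1.12 in NC, and MAT2A, at 1.18 and 1.10, were close between the lines by their brightest probe sets. The second, weaker probe set of MAT2A had 1.55 with ATO and 2.12 in NC. With the mean of all probe sets, MAT2A was higher in Huh7 at an adjusted p of 0.0385 from limma. The ATO and NC profiles of a line stood in as replicates here, so the test compares these profiles and not independent cultures.

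Other genes of arsenic handling were taken from lists chosen by function. Of 7 export genes, 2 were above 1.5 in Huh7 and 5 in Hep3B, and 0 were below 0.67 in either line, beside 3.21% and 5.04% of all genes above 1.5. ABCC2, the pump that sends arsenic-glutathione conjugates into bile, had intensities of 640 with ATO and 396 in NC for Huh7, and of 126 with ATO and 76.8 in NC for Hep3B. Its ratios of 1.61 and 1.64 made it the 1 exporter above 1.5 in both lines. ABCC3, a pump of the basolateral membrane, had ratios of 2.01, over a dim control, and 1.41. On the log2 scale the exporters had medians of 0.10 for Huh7 and 0.73 for Hep3B, and 6 of 7 were higher in both lines, as were 32.0% of all genes.

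Of 14 reductants and phosphorolytic enzymes linked to arsenate reduction, 11 were higher in both lines and 2 lower in both, beside 32.0% and 24.7% of all genes. The 11 included the 2 dim genes of the list, whose ratios cannot be read as a change. TXNRD1, the thioredoxin reductase that arsenic inhibits and that NRF2 induces, was the 1 gene above 1.5 in both, with 2781 with ATO and 835 in NC for Huh7, 1316 with ATO and 631 in NC for Hep3B, and ratios of 3.33 and 2.08. GSTP1, a glutathione transferase, was very unequal between the lines, with 1947 with ATO and 1559 in NC for Huh7 and 29.4 with ATO and 18.3 in NC for Hep3B, and log2 ratios of 0.32 and 0.68. The median of the reductants on the log2 scale was 0.16 for Huh7 and 0.51 for Hep3B.

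Of 16 measured genes of the SAM and methionine cycle, ATO was above NC in both lines for 7 and below it in both for 5, and 4 were opposite, beside 32.0% and 24.7% of all genes above and below in both. NNMT, which spends SAM on nicotinamide, was 2.10 times the control in Huh7 and 2.09 times in Hep3B, where its signal was low at 22.3 with ATO and 10.7 in NC. CTH, which makes cysteine from cystathionine, had ratios of 1.33 and 2.29. MAT1A, the SAM synthetase of adult liver, was named after its values were seen as the counterpart of MAT2A, and had 99.0 with ATO and 69.0 in NC for Huh7, 105 with ATO and 70.1 in NC for Hep3B, and log2 ratios of 0.52 and 0.59. Both MAT1A log2 ratios were thus above 0, while the brightest probe set of MAT2A stayed near its controls, with ratios of 0.951 and 0.887. The weaker MAT2A probe set had 0.704 in Huh7 and 0.965 in Hep3B. For MAT1A limma gave a raw p of 0.00680 and 0.506 once adjusted. The raw value is no support, because the gene was picked after its values were seen.

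Of 11 other uptake genes, 3 were above 1.5 and 1 was below 0.67 in Huh7, and 0 passed either threshold in Hep3B. Among all genes, 3.21% were above and 3.25% below in Huh7, and 5.04% and 4.02% in Hep3B. SLC2A5, among those above 1.5 in Huh7, was dim, with 37.0 with ATO and 8.93 in NC there. SLC20A1, also above 1.5 in Huh7, was bright, with 1375 with ATO and 875 in NC there. Its ratios were 1.57 in Huh7 and 0.973 in Hep3B. AQP10, an aquaglyceroporin of the gut, had 67.8 with ATO and 33.9 in NC for Huh7, and 23.8 with ATO and 25.9 in NC for Hep3B. SLC2A2, the liver glucose transporter, had ratios of 0.479 and 1.17. Of 7 other aquaporins measured, 5 were dim and 0 passed a threshold, with AQP6 at 1.15 and 1.10 and MIP, the aquaporin of the eye lens, at 0.846 and 1.26. As a scale, all 8 arsenic response indicators were above 1.5 in both lines, where 0.804% of all genes were. The genes of this list were known to be higher in these data. They are HMOX1, the metallothioneins MT1X and MT2A, the glutathione synthesis genes GCLC and GCLM, the cystine carrier SLC7A11, and the NRF2 targets SRXN1 and NQO1, with median log2 ratios of 1.24 and 1.58. After adjustment limma called 0 genes of these lists. Before adjustment limma p-values were under 0.05 for 3 of 7 export genes, 6 of 14 reductants and 5 of 16 SAM genes. They were under 0.05 for 0 of 11 other uptake genes and 0 of 7 other aquaporins, beside 9.54% of all genes. All 8 response indicators, known to be higher, were under it too.

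**Figure D4:**
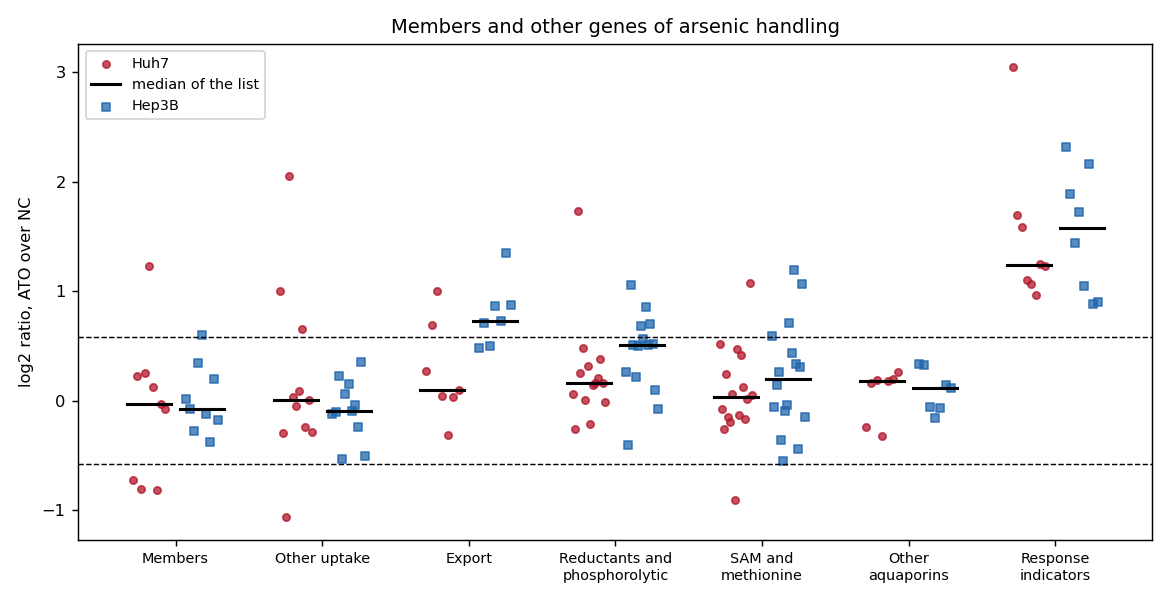
Log2 ratio of ATO over NC (y axis) for the 9 members and for the genes of 6 lists of arsenic handling, 1 point per gene, with circles for Huh7 and squares for Hep3B. Black bars are list medians, and dashed lines mark ratios of 1.5 and 0.67. The member medians lie at -0.03 and -0.08, and those of the response indicators at 1.24 and 1.58.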

How the data were processed

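Total RNA of 4 samples, ATO and NC cells of Huh7 and Hep3B, was hybridized to Affymetrix U133 Plus arrays. According to the methods, the authors used Robust Multi-array Average, a log transformation and quartile normalization in simpleaffy. The deposited values give 1 linear intensity for each probe set, although the methods name a log transformation. Whether a column is 1 array or several is not given in the sources used here. The annotation gave 1 gene to 41097 of 54675 probe sets, several to 1801 and none to 11777, and each gene was read from its brightest probe set with 1 gene. Ratios came from the intensities, and limma 3.58.1 in R 4.3.3 was fitted to log2(intensity + 16) with line and treatment, leaving 1 residual degree of freedom. Tests used Benjamini-Hochberg adjustment over all 19775 genes. On simulated data with small noise, the check required only that changes put in were recovered on average. It set no limit on false calls. No raw arrays, background or detection calls were used, and the number of arrays limits the precision.

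The members and lists were chosen with earlier results of these data known. Named are all members, HMOX1 and the genes of a list past 1.5 or 0.67 in both lines. Also named are the 2 genes of each list with the largest absolute mean log2 ratio among those not dim. MAT1A, TRMT112, SLC2A5, SLC20A1, the cell type markers named and the neighbors of AS3MT and GSTO2 were chosen after values were seen. Alternatives covered probe sets, scaling, dim genes, thresholds, offsets, priors of the fit, a fit without the line, the methods' t-test and leaving out a line.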

Additional observations from a re-analysis of the deposited data

Results flagged for a closer look

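For AQP3, AQP9, PNP and N6AMT1 the log2 ratios had opposite signs in the 2 lines, as they had for 8475 of all 19775 genes. Of the 8 ratios of these members, 1 passed a threshold, that of AQP3 in Huh7. The AQP3 ratio of 1.01 in Hep3B and those of PNP and N6AMT1 were near 1. The log2 ratio of ATO over NC in Huh7 minus that in Hep3B was -0.73 for AQP3, 0.30 for AQP9, 0.25 for PNP and -0.23 for N6AMT1. The difference was not tested, because each condition has 1 profile per line. AQP9 was dim in all 4 profiles, and the 3 probe sets of AQP3 did not share 1 direction within either line.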

How the results depend on the processing

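The count of members above 1.5 in both lines, 1 (GSTO2), became 0 with the mean of all probe sets, with arrays centred on the median, with ratios from intensity + 16 and with thresholds of 2 and 0.5. The count in Hep3B alone also became 0 under these 4 settings, and that in Huh7 became 0 with the mean of all probe sets. With thresholds of 2 and 0.5, the 3 members below 0.67 in Huh7 became 0 (2 with the mean of all probe sets, under which the mean log2 of AQP3 went to -0.023), the exporter count in both lines became 0, and 5 of the 8 response indicators passed. The reductant count in both lines became 0 with the mean of all probe sets, and the SAM cycle count became 0 with that mean and with intensity + 16. The cause was not tested beyond what these settings do to GSTO2, ABCC2, TXNRD1 and NNMT. After adjustment 0 members were called for ATO under each of 11 fits, the methods' t-test included, where over all genes limma called 3 with dim genes left out and 9 with an intensity trend, against 0 as reported. For the lines, the count of 4 members was between 4 and 6, beside 24.3% of all genes in the main fit. AQP11, N6AMT1 and MAT2A each passed in some of these settings and not in the main fit. The shares of all genes under the other settings are not given here. On log2(intensity + 16) with 1 line left out, AQP3 ran from -0.64 to 0.012, AQP9 from -0.030 to 0.080, PNP from -0.12 to 0.11 and N6AMT1 from -0.027 to 0.16. PNP turned to 0.00124 with an offset of 1, against -0.00179 as reported. The other members kept the sign of their mean log2 ratio in every setting run. The main fit pairs ATO with NC by line, the labels giving no replicate numbers, and without the line in the model limma also called 0 members. Dim values and 1 profile per condition limit all ratios.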

Other observations

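The genes next to AS3MT on chromosome 10, which were looked at after its values were seen, had ratios in Huh7 on both sides of 1. BORCS7, the gene directly upstream and a subunit of a complex that positions lysosomes, had an intensity of 607 with ATO and 1118 in NC for Huh7, and of 666 with ATO and 737 in NC for Hep3B. Its ratios of 0.543 and 0.904 stood beside 0.568 and 0.769 for AS3MT. SFXN2, a mitochondrial carrier 4 protein-coding genes upstream, had 194 with ATO and 312 in NC for Huh7, and 119 with ATO and 113 in NC for Hep3B, with ratios of 0.624 and 1.06. CNNM2, a magnesium transport protein directly downstream, had 4 probe sets with Huh7 ratios of 0.946, 0.728, 0.570 and 0.531 from the brightest to the dimmest, and Hep3B ratios of 0.978, 1.35, 1.19 and 0.980. WBP1L, between SFXN2 and BORCS7, had ratios of 0.907 and 1.10, and NT5C2, beyond CNNM2, 0.891 and 1.24. INA, a neurofilament protein gene 4 protein-coding genes downstream, went the other way, with 866 with ATO and 701 in NC for Huh7 and a ratio of 1.24, while in Hep3B it was low, at 8.98 with ATO and 14.0 in NC. CYP17A1, between WBP1L and BORCS7, was dim.

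Beside GSTO1 and GSTO2, the next protein-coding gene downstream was also higher with ATO. ITPRIP, which binds the inositol trisphosphate receptor, had 106 with ATO and 63.6 in NC for Huh7, and 53.2 with ATO and 25.2 in NC for Hep3B, with ratios of 1.67 and 2.11. SFR1, the second gene upstream of the pair, had ratios of 1.01 and 1.08, and CFAP43 between them was dim. These values describe position only, and no test of neighboring genes was run.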
